A study of Homo sapiens with 12 samples.

Results

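The genes described here encode the aminoacyl-tRNA synthetases of human cells. The list held 36 genes chosen by name as cytosolic or mitochondrial synthetases, with an older and a current symbol of 1 gene, such as SARS and SARS1, counted once. A peak of any of the precipitated proteins lay on 32 of the 36, beside 53.6% of the 20046 protein coding genes in the annotation, and 10827 genes in all had a peak in some list. By place of work, 20 were cytosolic, with GARS1 and KARS1, which serve both compartments, counted there, and 16 were mitochondrial.

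An aminoacyl-tRNA synthetase joins an amino acid to the tRNA that carries the matching anticodon, and so supplies the ribosome with its substrates. Cytosol and mitochondria mostly use separate synthetase genes, and several cytosolic synthetases sit together in the multi-synthetase complex, held by the scaffold proteins AIMP1, AIMP2 and EEF1E1. The genes of the cytosolic enzymes belong to those that the transcription factor ATF4 can raise when amino acids run short.

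In a search for targets of METTL16, the study sequenced RNA recovered by immunoprecipitation (RIP) of METTL16 and of the translation initiation subunits eIF3a and eIF3b from HepG2, an established liver cancer cell line. The 12 samples were 6 RIP samples, 2 each for METTL16, eIF3a and eIF3b, and 6 inputs with no antibody. All were stable lines infected with 3XFlag constructs (pmiRNA1-3XFlag-METTL16, pSIN4-3XFlag-eIF3a or pSIN4-3XFlag-eIF3b), so each bait was overexpressed, and the labels name no untransduced line. The labels give a Flag antibody for METTL16 and eIF3b and an eIF3a antibody for eIF3a, so antibody and protein cannot be told apart in any comparison with eIF3a. The names under which the lists were deposited say Flag for eIF3a as well, and the labels were followed here.

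Each RIP sample gave 1 list of peaks, which are stretches of exon enriched over input. The lists held 12921 to 21733 peaks on 5224 to 8161 genes, and the read depth behind them is unknown. A gene without a peak cannot be told apart from a gene with too few reads to call one, and the study calls the 2 replicates biological without saying how they were separated. Of 9 hepatocyte markers, 8 carried a peak in some list (TTR did not), as did 2 of 3 leukocyte, 2 of 2 endothelial and 0 of 3 fibroblast markers. A peak shows enrichment over input and not a level. The list that stood apart was eIF3a replicate 2, with 10.8% of its peaks made of 5 or more exon blocks against 3.80% to 6.93% in the others, so counts that rest on it are also given without it.

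Of the genes in the list, 3 carried a peak in all 6 lists: FARSA, VARS1 and EARS2. FARSA encodes the alpha subunit of cytosolic phenylalanyl-tRNA synthetase, VARS1 the cytosolic valyl-tRNA synthetase and EARS2 the mitochondrial glutamyl-tRNA synthetase. The first 4 stretches below are the parts of their coding sequences that lay under a peak in all 6 lists, and are shown because peaks of the 3 proteins overlapped there. The stretches of SARS1 and AARS1 were shared by 5 lists and were chosen after their values were seen, as examples from the start and the end of a coding sequence. Other stretches shared by 5 lists are not printed. They lay on exons 16 to 20 of AARS1, in the 5′ UTR and exon 2 of SARS1, and on HARS1, KARS1, MARS1 and YARS1. All are mRNA-strand sequences of GRCh38, and capitals mark a start codon.
FARSA (chr19:12933565-12933654, minus strand, exon 1, bases 43 to 132 of the coding sequence): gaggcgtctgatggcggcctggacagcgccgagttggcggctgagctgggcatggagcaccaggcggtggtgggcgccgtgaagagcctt
VARS1 (chr6:31785647-31785677, minus strand, exon 9, bases 1157 to 1187 of the coding sequence): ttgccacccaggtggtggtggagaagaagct
EARS2 (chr16:23535341-23535360, minus strand, exon 4, bases 486 to 505 of the coding sequence): gtatgacaatcggtgcagga
EARS2 (chr16:23544514-23544524, minus strand, exon 3, bases 475 to 485 of the coding sequence): cagacgccccg
SARS1 (chr1:109213993-109214128, plus strand, exon 1, bases 1 to 136 of the coding sequence): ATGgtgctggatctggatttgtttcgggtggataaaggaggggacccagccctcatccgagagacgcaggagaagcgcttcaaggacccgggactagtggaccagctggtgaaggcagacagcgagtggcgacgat
AARS1 (chr16:70252724-70252906, minus strand, exon 21, bases 2722 to 2904 of the coding sequence): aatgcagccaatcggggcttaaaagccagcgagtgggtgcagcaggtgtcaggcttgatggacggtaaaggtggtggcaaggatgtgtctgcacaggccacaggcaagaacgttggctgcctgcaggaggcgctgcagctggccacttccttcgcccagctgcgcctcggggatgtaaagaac

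Cytosolic synthetase mRNAs carried METTL16 and eIF3b peaks more often than mitochondrial ones. METTL16 had a peak in both replicates on 14 of the 36 genes, beside a background of 22.9% of all protein coding genes and 42.6% of genes with a peak in any list. The 14 made up 38.9% of the list and included AARS1, CARS1, CARS2, EARS2, FARSA, HARS1, KARS1, LARS1, SARS1, TARS1, VARS1, WARS1 and YARS1. They held 12 of the 20 cytosolic genes and 2 of the 16 mitochondrial genes, CARS2 and EARS2. The gap between the classes was not tested, and how far RNA levels of the genes had a part in it was not tested either.

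eIF3b had a peak in both replicates on 20 genes, or 55.6%, beside 32.2% of all protein coding genes and 59.9% of genes with a peak in any list. These were 14 cytosolic and 6 mitochondrial genes, and they held 13 of the 14 METTL16 genes, all but WARS1. Beside those 13 stood AARS2, EPRS1, FARSB, LARS2, MARS1, NARS2 and YARS2. The 13 genes that METTL16 and eIF3b shared made up 36.1% of the list, beside 19.6% of protein coding genes and 36.4% of genes with a peak in any list. These shares lay above that of all protein coding genes. They were taken over all 36 genes, so they cannot be set directly against the shares of genes with a peak in any list. Of the 32 synthetase genes with a peak in any list, 20 had eIF3b peaks and 13 had both, beside 59.9% and 36.4%.

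eIF3a had a peak in both replicates on 7 genes, or 19.4%, beside 22.8% of protein coding genes and 42.4% of genes with a peak in any list. They were FARSA, IARS1, MARS1 and VARS1 among the cytosolic genes and AARS2, EARS2 and FARS2 among the mitochondrial genes. The eIF3a peaks of IARS1 did not overlap, with exon 26 in replicate 1 and exons 12 to 20 in replicate 2. The 5 genes that eIF3a and eIF3b shared, AARS2, EARS2, FARSA, MARS1 and VARS1, made up 13.9%, beside 19.8% and 36.8%. The 3 genes called for all 3 proteins made up 8.33%, beside 13.6% of protein coding genes and 25.2% of genes with a peak in any list.

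**Figure D1:**
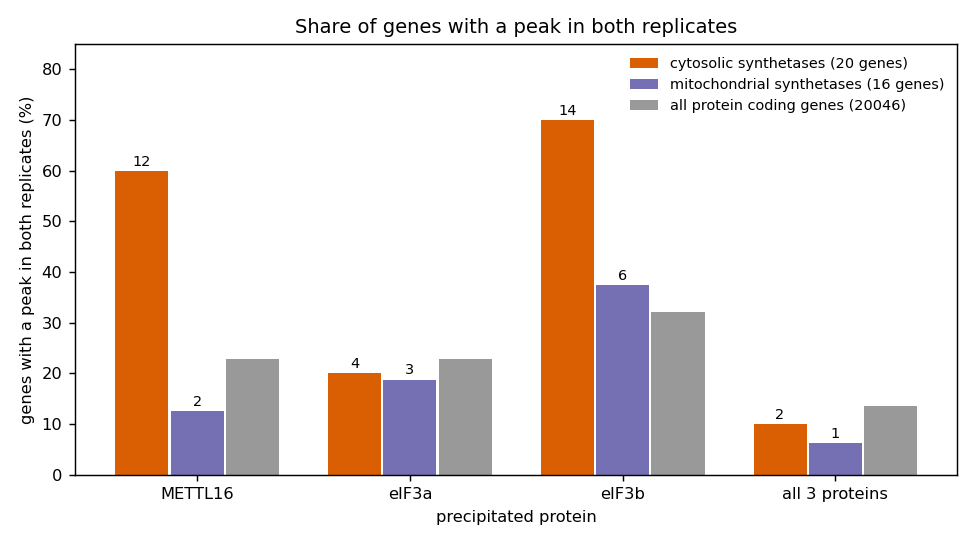
Percent of genes with a peak in both replicates of METTL16, eIF3a, eIF3b or all 3 proteins (vertical axis, %), for 20 cytosolic synthetase genes, 16 mitochondrial synthetase genes and 20046 protein coding genes; numbers over bars are gene counts. The cytosolic bars for METTL16 (12 genes) and eIF3b (14 genes) stand above both of the bars beside them, and the eIF3a bars do not.

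The eIF3a count turned on replicate 2. The first eIF3a list held 19 synthetase genes, 14 cytosolic and 5 mitochondrial, beside 40.5% of protein coding genes and 75.4% of genes with a peak in any list. The second held 12, of which 5 were cytosolic and 7 mitochondrial, beside 25.9% and 48.2%. Replicates 1 and 2 of METTL16 held 16 and 23 genes, beside 29.0% and 31.5% of protein coding genes and 53.8% and 58.5% of genes with a peak in any list. Those of eIF3b held 26 and 23 genes, beside 40.0% and 37.5%, and 74.4% and 69.9%. Of the 36 genes these counts were 33.3% in eIF3a replicate 2 and 44.4% to 72.2% in the other lists. In the other lists cytosolic genes numbered 14 and 17 for METTL16 and 17 and 16 for eIF3b, while mitochondrial genes numbered 2 and 6 for METTL16 and 9 and 7 for eIF3b. The lists other than eIF3a replicate 2 thus held at least 14 of the 20 cytosolic genes each.

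Of the 36 genes, 8 had a peak in the 5 other lists and none in eIF3a replicate 2, which was 22.2%, beside 5.01% of protein coding genes and 9.31% of genes with a peak in any list. They included AARS1, CARS1, HARS1, KARS1, LARS1, SARS1 and YARS1, and all 8 were cytosolic. Without eIF3a replicate 2 the genes with peaks of all 3 proteins numbered 11 and the eIF3a genes 19, and without eIF3a replicate 1 these counts were 3 and 12. Over all genes, 3736 had peaks of all 3 proteins without eIF3a replicate 2 and 2773 without eIF3a replicate 1, against 2728 in all 6 lists. These were out of 10827 genes with a peak in any list, beside 32 synthetase genes. Leaving out an eIF3a list asks for 1 eIF3a peak in place of 2, so such counts cannot fall. Whether the long peaks of eIF3a replicate 2 had a part in these counts was not tested.

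METTL16 counts also differed within the cytosol. Of 12 cytosolic synthetases outside the multi-synthetase complex, METTL16 had peaks on 9 in both replicates (75.0%), eIF3a on 2 (16.7%) and eIF3b on 9 (75.0%), beside 22.9%, 22.8% and 32.2% of all protein coding genes. Of the 8 synthetases of the complex, METTL16 had peaks on 3, among them the lysyl and leucyl enzymes KARS1 and LARS1, while eIF3a had peaks on 2 and eIF3b on 5 (37.5%, 25.0% and 62.5%). In METTL16 replicate 1 alone the counts were 10 of 12 outside the complex and 4 of 8 within it, and in METTL16 replicate 2 alone 11 of 12 and 6 of 8. The difference between the classes was described and not tested.

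**Figure D2:**
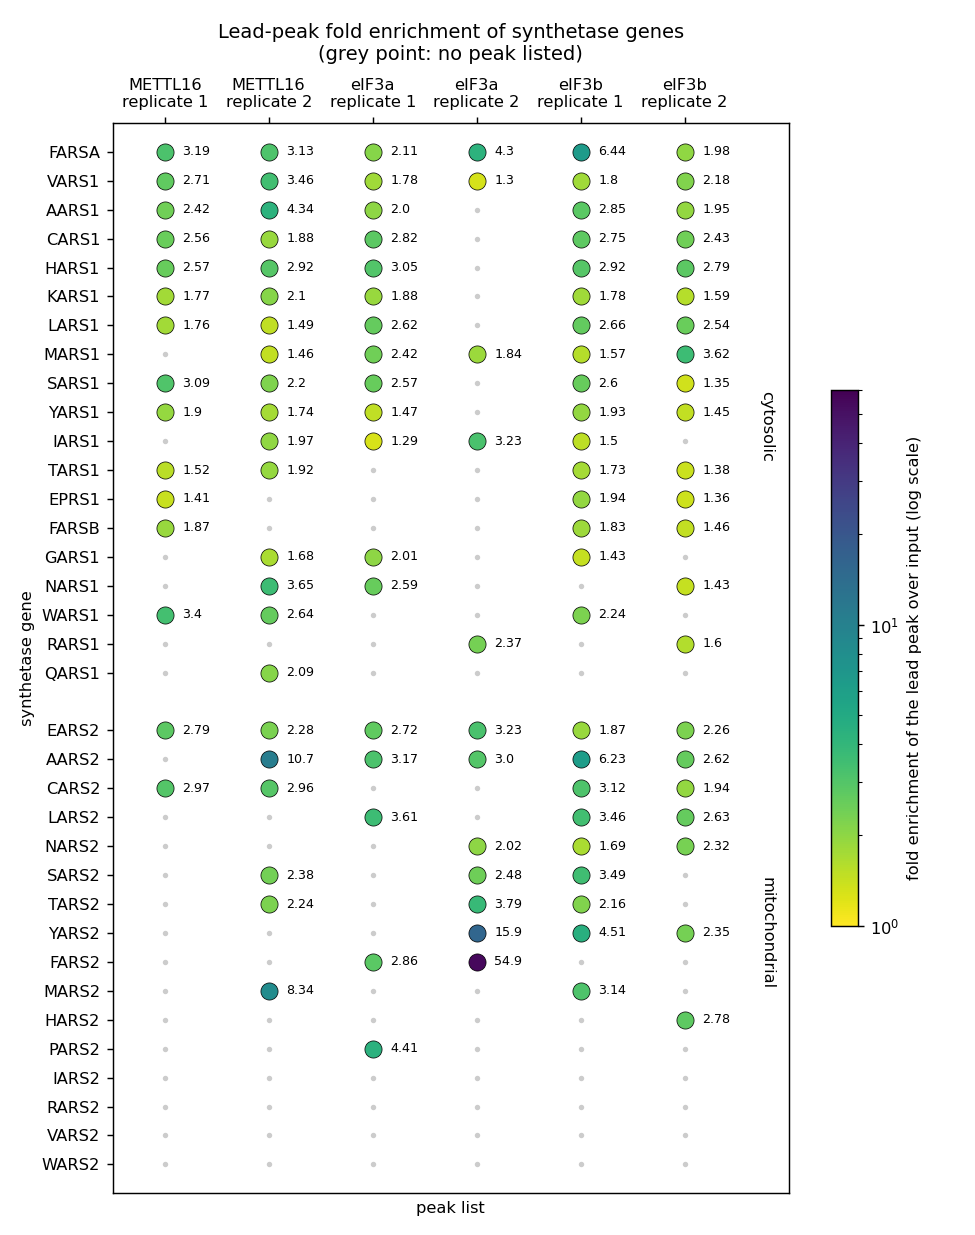
Fold enrichment over input of the lead peak, the peak with the smallest p-value, for the synthetase genes named in the text (rows) in each of the 6 peak lists (columns), coloured on a log scale, with the value beside each point and small grey points where a list held no peak. FARSA, VARS1 and EARS2 have a value in every column, and the column of eIF3a replicate 2 has 5 of the 20 cytosolic genes.

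The genes fell into a few patterns across the lists. Among the genes with peaks in 5 lists were AARS1, AARS2, CARS1, HARS1, KARS1, LARS1, MARS1, SARS1 and YARS1. Peaks lay in 4 lists on CARS2, IARS1, which charges isoleucine tRNA, and TARS1, which charges threonine tRNA. Peaks lay in 3 lists on EPRS1, the fused glutamyl and prolyl enzyme, and on FARSB, GARS1, LARS2, NARS1, NARS2, SARS2, TARS2, WARS1 and YARS2. FARS2, MARS2 and RARS1 had peaks in 2 lists, and HARS2, PARS2 and QARS1 in 1. The mitochondrial enzymes IARS2, RARS2, VARS2 and WARS2 had none.

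Enrichment on synthetase mRNAs was low for each list. The median lead-peak fold enrichment over the synthetase genes was 2.56 and 2.28 for METTL16, 2.57 and 3.12 for eIF3a, and 2.20 and 2.13 for eIF3b, in replicates 1 and 2. Over all genes with a peak in the same lists the medians were 3.62 and 3.85, 3.43 and 3.34, and 4.07 and 3.45. Each of the 6 synthetase medians lay below its all-gene median.

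Ranked among all genes of a list, the median synthetase gene stood at the 28.4th and 18.0th percentile for METTL16, the 30.3rd and 46.1st for eIF3a, and the 16th and 18th for eIF3b. Between 1 and 4 synthetase genes per list stood above the 50th percentile. The highest values belonged to mitochondrial genes in single lists, with 54.9 for FARS2 and 15.9 for YARS2 in eIF3a replicate 2, and 10.7 for AARS2 and 8.34 for MARS2 in METTL16 replicate 2. The log10 p of these peaks from exomePeak was -288.0, -4.14, -5.4 and -5.34. For the 4.34-fold AARS1 peak of METTL16 replicate 2 it was -139.0, so a high fold was not always a strong call.

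**Figure D3:**
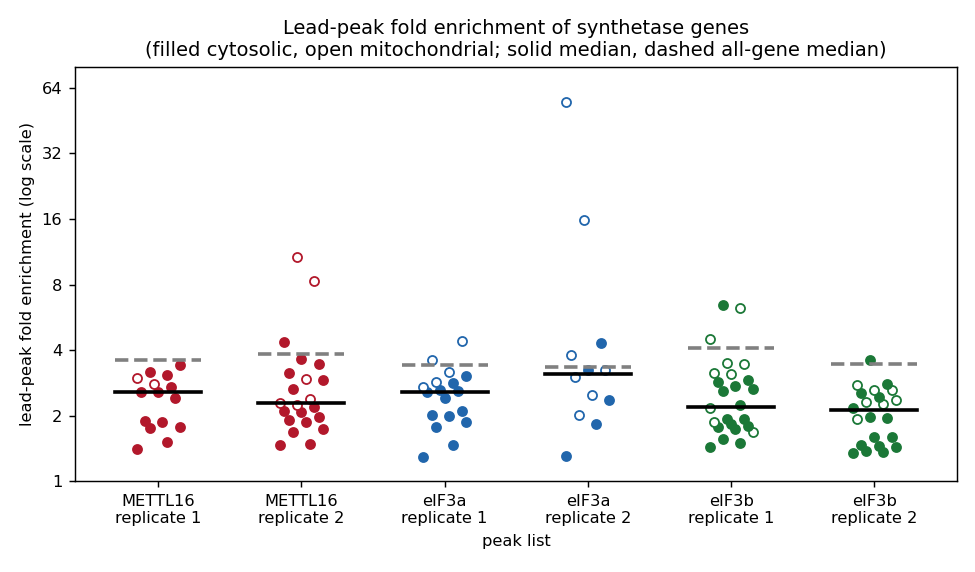
Lead-peak fold enrichment over input (log axis) of the synthetase genes named in the text that had a peak in each list; filled points are cytosolic and open points mitochondrial genes, the solid bar is the median over all synthetase genes and the dashed bar the median over all genes in that list. The solid bars lie between 2.13 and 3.12 and each lies below its dashed bar.

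FARSA had lead-peak fold enrichments of 3.19 and 3.13 for METTL16, 2.11 and 4.3 for eIF3a, and 6.44 and 1.98 for eIF3b. The METTL16 replicates were close, and the eIF3 replicates spread over a wider range than the gap between proteins. In 5 lists the lead peak began in exon 1, and in eIF3a replicate 2 it lay on exons 4 to 8 while a smaller peak of 1.73-fold lay on exon 1.

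VARS1 had fold enrichments of 2.71 and 3.46 for METTL16, 1.78 and 1.3 for eIF3a, and 1.8 and 2.18 for eIF3b. Both METTL16 values lay above the 4 eIF3 values. VARS1 carried 4 and 7 METTL16 peaks along its mRNA, and the METTL16 lead peak spanned exons 8 to 11 in both replicates. The shared 31 bases of exon 9 lay inside it. In eIF3b replicate 2 the lead peak lay on exons 29 and 30, and the peak on exon 9 was 1.32-fold.

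EARS2 had fold enrichments of 2.79 and 2.28 for METTL16, 2.72 and 3.23 for eIF3a, and 1.87 and 2.26 for eIF3b. The METTL16 values lay within the range of the eIF3 values. The lead peaks behind these values lay at different places. For METTL16 they lay on exons 4 to 6 in replicate 1 and on exons 3 and 4 in replicate 2. For eIF3a they lay in the 3′ UTR in replicate 1 and on exons 1 to 6 in replicate 2. For eIF3b they lay on exons 3 and 4 in replicate 1 and on exons 8 and 9 in replicate 2. Peaks crossed the junction of exons 3 and 4 in all 6 lists, and a 3′ UTR peak lay in 5 lists, with METTL16 replicate 2 the exception.

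The difference between proteins was tested with limma over the 2728 genes that had peaks in all 6 lists. After Benjamini-Hochberg adjustment 0 genes passed at 0.05 in any of the 3 comparisons (0% of the genes tested), with 245, 188 and 162 genes at an unadjusted p under 0.05 for METTL16 minus eIF3a, METTL16 minus eIF3b and eIF3a minus eIF3b. None of the 3 synthetase genes passed at the unadjusted threshold. The differences compare lead peaks, which for each of these genes lay at different places in some lists. They are therefore differences per gene and not at a common site. After centring each list on its median, the difference of VARS1 between METTL16 and eIF3b was 0.71 on the log2 scale (SE 0.44, 95% interval -0.35 to 1.76, limma adjusted p = 0.818). That of EARS2 between eIF3a and eIF3b was 0.99 (SE 0.46, 95% interval -0.11 to 2.08, limma adjusted p = 0.852). That of FARSA between METTL16 and eIF3b was -0.10 (SE 0.63, 95% interval -1.59 to 1.39, limma adjusted p = 0.992). With 2 lists per protein the intervals leave room for changes of more than 1 on the log2 scale in either direction for FARSA. The values also moved with single lists. VARS1 read 0.36 without eIF3b replicate 1 and 1.04 without eIF3b replicate 2, and FARSA read 0.55 and -0.76 without the same lists, so its sign turned. EARS2 read 0.65 without eIF3b replicate 1, and 0.53 without centring.

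Start codons of a few genes lay under peaks in several lists. SARS1, the cytosolic seryl-tRNA synthetase, had a lead peak over its start codon in 5 lists, with fold enrichments of 3.09 and 2.2 for METTL16, 2.57 for eIF3a replicate 1, and 2.6 and 1.35 for eIF3b. These peaks ran from the 5′ UTR into exon 2, and the 136 coding bases shown above lay under all 5. The value of eIF3b replicate 2 was the lowest, and the others lay between 2.2 and 3.09.

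MARS1, the methionyl enzyme of the complex, had a start codon peak in both eIF3a lists, at 2.42 and 1.84, and both eIF3b lists, at 1.57 and 3.62. METTL16 had no MARS1 peak in replicate 1, and in replicate 2 a peak of 1.46-fold on coding bases 12 to 71. Of the 8 MARS1 peaks, 2 overlapped DDIT3, a gene on the opposite strand.

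LARS1, the leucyl enzyme of the complex, also had peaks there. Its lead peaks covered the start codon in eIF3a replicate 1 and both eIF3b lists, at 2.62, 2.66 and 2.54. METTL16 replicate 1 had a 1.76-fold peak in the 5′ UTR, within the stretch that the eIF3 peaks covered, and METTL16 replicate 2 a 1.49-fold peak on exons 17 to 19. The 2 METTL16 peaks did not overlap each other.

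Over all synthetase genes with a peak, a peak covered the start codon on 5 and 4 genes for METTL16 (31.2% and 17.4%), 4 and 3 for eIF3a (21.1% and 25.0%), and 6 and 6 for eIF3b (23.1% and 26.1%). Over all genes the shares were 17.7% and 18.2%, 14.8% and 13%, and 25.1% and 17.4%. Shares of so few genes move by several percent with 1 gene.

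**Figure D4:**
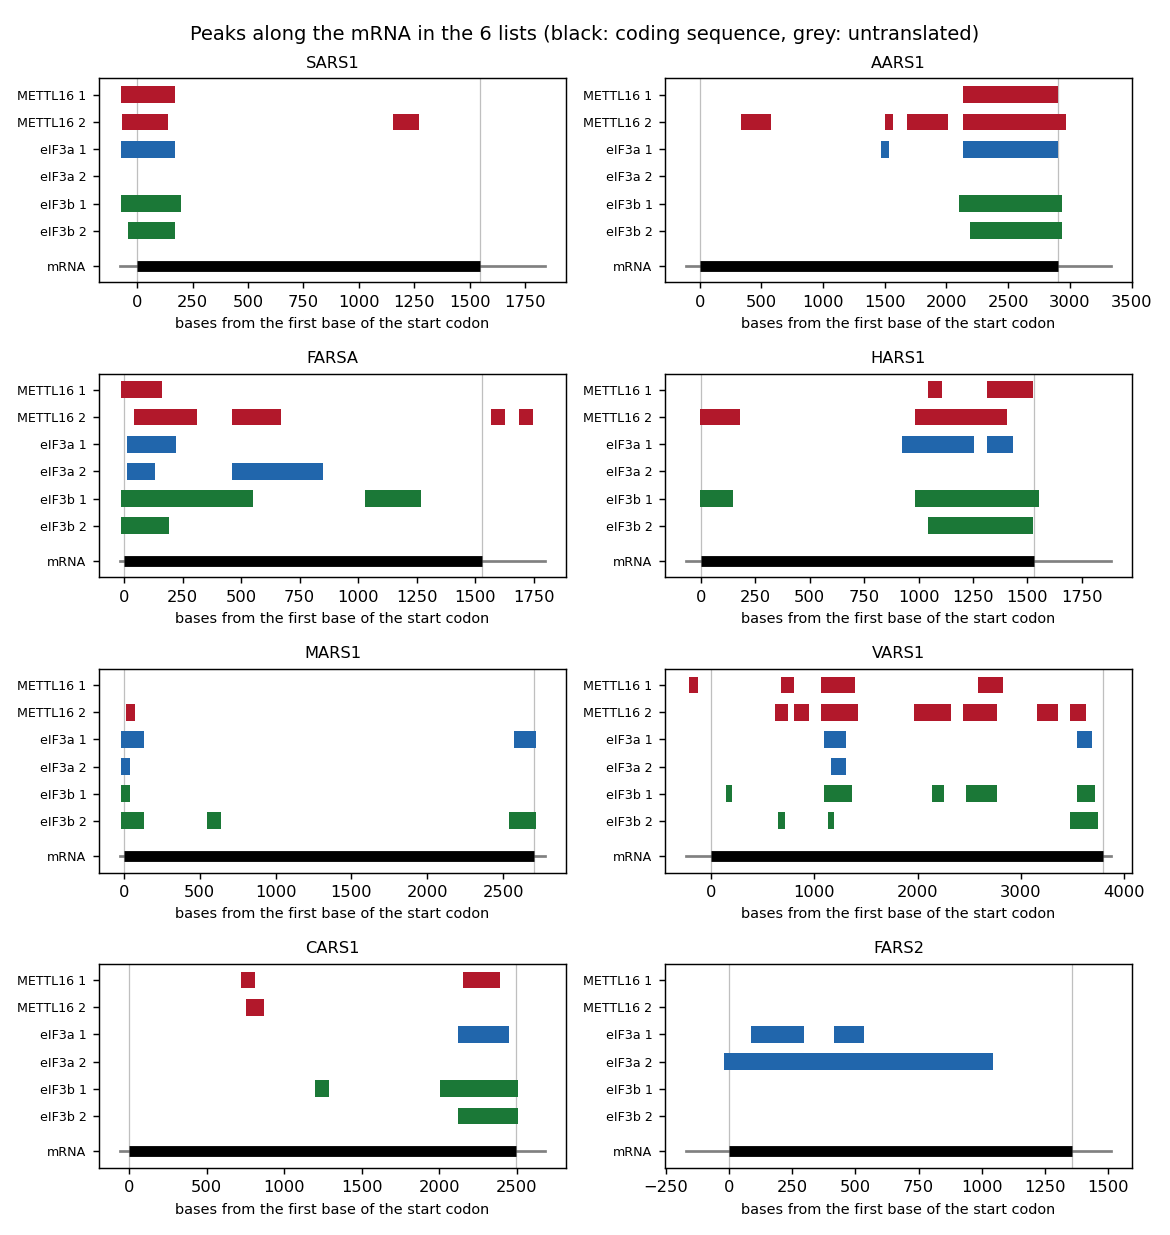
Peaks of the 6 lists (bars, METTL16 red, eIF3a blue, eIF3b green, replicates 1 and 2 on separate rows) along the mRNA of 8 synthetase genes, with distance in bases from the first base of the start codon on the horizontal axis and the coding sequence drawn as a black bar at the bottom. Peaks pile up at the start of SARS1, FARSA and MARS1 and at the end of the coding sequence of AARS1, HARS1 and, in 4 lists, CARS1.

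A few genes, described after their values were seen, had their lead peaks near the end of the coding sequence. Over all synthetase genes with a peak, a peak covered the stop codon on 0% and 8.70% for METTL16, 15.8% and 8.33% for eIF3a, and 23.1% and 34.8% for eIF3b. Over all genes these shares were 19.4% and 18.7%, 19.7% and 13.9%, and 24.4% and 22.8%, so the synthetase share was the lower one in 5 of 6 lists, with eIF3b replicate 2 the exception.

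AARS1, the cytosolic alanyl-tRNA synthetase, had lead peaks of 2.42 and 4.34 for METTL16, 2.0 for eIF3a replicate 1, and 2.85 and 1.95 for eIF3b. They covered exons 15 to 21 in 4 lists and exons 16 to 21 in eIF3b replicate 2, with lengths of 748 to 837 bases. METTL16 replicate 2 was the highest of the 5 values and the only list with a peak on exons 4 and 5.

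HARS1, the histidyl enzyme, had lead peaks of 2.57 and 2.92 for METTL16, 3.05 for eIF3a replicate 1, and 2.92 and 2.79 for eIF3b. These were the most even values among the genes with peaks in 5 lists that are described here. Stretches of 91 bases of exon 12 and 61 bases of exon 10 lay under a peak in all 5 lists. HARS1 also had a start codon peak in METTL16 replicate 2, at 3.18, and in eIF3b replicate 1, at 1.79.

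CARS1, the cytosolic cysteinyl enzyme, had lead peaks of 2.56 and 1.88 for METTL16, 2.82 for eIF3a replicate 1, and 2.75 and 2.43 for eIF3b. In 4 lists the lead peak lay on the last exons, up to exon 23, and in METTL16 replicate 2 it lay on exons 7 and 8, where METTL16 replicate 1 had a second peak of 1.61. CARS1-AS1 on the opposite strand overlaps 2 of its 7 peaks, and the libraries were made with a stranded kit while the strand setting of the counting is not given in the sources used here.

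CARS2, the mitochondrial cysteinyl enzyme, had no eIF3a peak. Its lead peaks were 2.97 and 2.96 for METTL16, and 3.12 and 1.94 for eIF3b. In all 4 lists a peak joined exons 11 and 12, and in eIF3b replicate 2 that peak, at 2.94, was not the lead. On the exons that the lists shared, the 4 values lay between 2.94 and 3.12.

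WARS1, the cytosolic tryptophanyl enzyme, was the METTL16 gene missing from the eIF3b genes. It had peaks on exons 10 and 11 of 3.4 and 2.64 for METTL16 and 2.24 for eIF3b replicate 1, and no peak in the other 3 lists. YARS1, the tyrosyl enzyme, had METTL16 peaks over its start codon of 5.2 and 4.37 that did not lead by p-value, beside lead peaks of 1.9 and 1.74 that covered exons 10 and 11, where eIF3a replicate 1 had 1.47 and eIF3b 1.93 and 1.45. The eIF3 lists held no YARS1 peak over the start codon, and eIF3b replicate 1 held 5′ UTR peaks of 2.27 and 5.49. The 5.49-fold peak had less than 50% of its bases on exons of the reference transcript. S100PBP on the opposite strand overlaps 1 of the 13 YARS1 peaks.

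TARS1 had METTL16 lead peaks of 1.52 at the start codon and 1.92 on exons 11 and 12, and eIF3b lead peaks of 1.73 at the start codon and 1.38 on exons 17 to 19. eIF3b replicate 2 also had a start codon peak of 1.52. The METTL16 replicates thus shared the gene and not the place.

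KARS1, whose transcripts make the cytosolic and the mitochondrial lysyl-tRNA synthetase by alternative splicing, had lead peaks of 1.77 and 2.1 for METTL16, 1.88 for eIF3a replicate 1, and 1.78 and 1.59 for eIF3b. The METTL16 replicate 2 lead peak lay on exons 8 to 12, and the other 4 lay at the 5′ end. In each of these 5 lists a peak lay on the exon chr16:75644283-75644462, which the transcript coding for 625 residues holds and the reference transcript of 597 residues lacks, and went on into the next exon. The first exon of the reference transcript carried a peak in 0 lists. Peak blocks follow the gene models of the peak caller, so they do not show which transcript the reads came from. Pseudogenes of KARS1 and of 10 other genes in the list are in the annotation, and how reads that match both were treated is not given in the sources used here.

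Peaks on synthetase mRNAs lay mostly in the coding sequence. The coding share of METTL16 peaks was 86.2% ± 6.67 (SD, n = 2 lists), beside 64.7% ± 5.46 over all genes. The eIF3a share was 73.5% ± 0.248 beside 57.3% ± 0.877, and the eIF3b share 75.0% ± 0 beside 59.2% ± 2.37, the 2 eIF3b lists giving the same share to 3 digits. Each gap was larger than the SD between the lists of a protein. The mRNAs themselves differed in the same direction, since 70.0% of the mRNA bases of the 32 synthetase genes were coding, against 46.8% over all genes with a peak. Among peaks of at least 4-fold enrichment, which were few, METTL16 had a coding share of 30.0% and each eIF3 subunit one of 50%.

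The 3′ UTR held 4.12% ± 0.595 of METTL16 peaks on synthetase genes, 21.8% ± 2.61 of eIF3a peaks and 18.7% ± 1.90 of eIF3b peaks (SD, n = 2 lists each). Over all genes it held 28.0%, 38.3% and 33.2%. The METTL16 share on synthetase genes lay below both eIF3 shares by more than these SDs, and 2 lists against 2 cannot reach a two-sided exact permutation p below 0.333.

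LARS2, the mitochondrial leucyl enzyme, was a gene with 3′ UTR peaks of eIF3 and no METTL16 peak. Its lead peaks lay there in eIF3a replicate 1 at 3.61 and in eIF3b at 3.46 and 2.63, over 180 shared bases. AARS2, the mitochondrial alanyl enzyme, had peaks over the end of its coding sequence and the start of its 3′ UTR in both eIF3a and both eIF3b lists, and none of METTL16 there.

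Within the coding sequence, peaks on synthetase mRNAs lay at the ends more than in the middle in 5 of 6 lists. When each coding sequence was cut into 3 equal parts, the middle part held 13.6% and 25.0% of METTL16 peak centres, 14.3% and 45.5% of eIF3a centres, and 20% and 6.67% of eIF3b centres. Over all genes it held 29.6% to 35.4%. eIF3a replicate 2 was the list above that range, with 11 coding peaks of 15.

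Peaks on a shared mRNA did not always meet. On synthetase genes 57.8% ± 23.1 of METTL16 peaks overlapped an eIF3b peak by at least 1 base (SD over 4 pairs of lists), beside 69.4% ± 11.2 over all genes. The share overlapping an eIF3a peak was 28.4% ± 17.0, beside 51.5% ± 13.2, and 57.6% ± 7.41 of eIF3a peaks overlapped an eIF3b peak, beside 60.4% ± 0.513. The METTL16 share on eIF3a was 51.9% and 29.5% with eIF3a replicate 1, and 18.5% and 13.6% with eIF3a replicate 2. The gap to all genes was smaller than the SD for METTL16 on eIF3b and larger than it for METTL16 on eIF3a, and none of these gaps was tested.

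FARS2, the mitochondrial phenylalanyl enzyme, was the gene with peaks in both lists of 1 protein and in no list of another. It had lead peaks of 2.86 and 54.9 in eIF3a replicates 1 and 2. In replicate 1 the gene had 2 peaks of 210 and 120 bases on exon 2. In replicate 2 it had a single peak of 1106 bases in 5 blocks that ran over the start codon to exon 5, at the 99.1st percentile of that list. The fold of FARS2 thus rested on 1 list.

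The remaining genes had 1 to 3 lists each. FARSB, the beta subunit that pairs with FARSA, had a peak on exons 16 and 17 of 1.87 in METTL16 replicate 1 and of 1.83 and 1.46 in eIF3b, and all 3 overlapped. EPRS1 had lead peaks of 1.41 in METTL16 replicate 1 and 1.94 and 1.36 in eIF3b, and the first 2 of these overlapped on exons 12 and 13. GARS1, the glycyl enzyme, had 1.68, 2.01 and 1.43 in METTL16 replicate 2, eIF3a replicate 1 and eIF3b replicate 1.

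NARS1, the cytosolic asparaginyl enzyme, had lead peaks of 3.65, 2.59 and 1.43 in METTL16 replicate 2, eIF3a replicate 1 and eIF3b replicate 2, on different exons. QARS1, the glutaminyl enzyme, had a start codon peak of 2.09 in METTL16 replicate 2. Among mitochondrial enzymes, NARS2 had lead peaks of 2.02, 1.69 and 2.32, SARS2 of 2.38, 2.48 and 3.49 and TARS2 of 2.24, 3.79 and 2.16, each in 3 lists. These genes were therefore not called on the same stretch by replicates of a protein, apart from FARSB in eIF3b and NARS2 in eIF3b. Of the 3 SARS2 peaks, 2 touched exons of another protein coding gene on the same strand, so they cannot be assigned to SARS2 alone.

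MARS2, the mitochondrial methionyl enzyme, had peaks of 8.34 in METTL16 replicate 2 and 3.14 in eIF3b replicate 1 on its single exon. YARS2, the mitochondrial tyrosyl enzyme, had 15.9 in eIF3a replicate 2 and 4.51 in eIF3b replicate 1 in its 3′ UTR, and 2.35 in eIF3b replicate 2 on exon 1. HARS2 had 2.78 in eIF3b replicate 2 and PARS2 had 4.41 in eIF3a replicate 1. The lead-peak folds above 8 on synthetase genes, those of FARS2, YARS2, AARS2 and MARS2, each came from 1 list.

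Peaks of many exon blocks, as on FARS2, set eIF3a replicate 2 apart on the synthetase genes too. Of its 15 peaks there, 5 had 5 or more blocks, against 1 and 2 for METTL16, 2 for eIF3a replicate 1, and 3 and 2 for eIF3b. Beside FARS2 they lay on IARS1 (9 blocks, 987 bases, 3.23-fold), EARS2 (6 blocks, 1132 bases, 3.23-fold), RARS1 (5 blocks, 594 bases, 2.37-fold) and FARSA (5 blocks, 389 bases, 4.3-fold). On IARS1 the lead peaks of METTL16 replicate 2, eIF3a replicate 1 and eIF3b replicate 1 had 1 or 2 blocks and fold enrichments of 1.97, 1.29 and 1.5.

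The heptamer ACAGAGA, the core of known METTL16 sites, was searched on the mRNA strand of each peak. It was in 0 of 26 and 1 of 43 METTL16 peaks on synthetase genes with sequence, 1 of 36 and 1 of 14 eIF3a peaks, and 2 of 50 and 1 of 38 eIF3b peaks. Over all genes it was in 3.30% to 5.34% of peaks per list. The GC content of METTL16 peaks on synthetase genes averaged 57.6% and 57.4%, beside 58.8% and 60.6% over all genes.

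Other genes tied to tRNA charging were read from 4 further gene lists. Of the scaffolds of the multi-synthetase complex, AIMP1 had peaks of METTL16 and eIF3b in both replicates, at 1.49 and 1.51 and at 1.73 and 2.34, and one of eIF3a replicate 1 at 1.99, AIMP2 had a peak in 1 list and EEF1E1 in none. Of 12 genes for proofreading, transamidation and special charging, 3 had METTL16 peaks, 3 eIF3a peaks and 3 eIF3b peaks in both replicates. The shares to read these and the next counts against are 22.9%, 22.8% and 32.2% of all protein coding genes, and 42.6%, 42.4% and 59.9% of genes with a peak in any list, and the 3 counts of 3 lie near the first of these or below. GATC, a subunit of the mitochondrial amidotransferase that makes glutaminyl-tRNA, was in all 6 lists.

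Of 29 genes for tRNA processing, modification and export, 6 had METTL16 peaks, 7 eIF3a peaks and 17 eIF3b peaks in both replicates, beside 22.9%, 22.8% and 32.2% of all protein coding genes. The METTL16 and eIF3a counts lay near these shares and the eIF3b count above. The 2 in all 6 lists were ELAC2, which trims the 3′ end of tRNA precursors, and PUS1, a pseudouridine synthase. PUS1 had fold enrichments of 3.34 and 8.1 for METTL16, 2.19 and 1.86 for eIF3a, and 6.06 and 3.95 for eIF3b, with both eIF3a values the lowest.

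Of 15 genes of the amino acid response, 10 had METTL16 peaks, 7 eIF3a peaks and 11 eIF3b peaks in both replicates, beside 22.9%, 22.8% and 32.2% of all protein coding genes and 42.6%, 42.4% and 59.9% of genes with a peak in any list. In all 6 lists were ATF4, the transcription factor of that response, CEBPB and CEBPG, which can pair with it, the amino acid transporter subunits SLC3A2 and SLC7A5, and STC2, a secreted glycoprotein. ATF4 had fold enrichments of 1.89 and 1.59 for METTL16, 1.75 and 1.22 for eIF3a, and 1.79 and 2.28 for eIF3b. Those of SLC7A5 were 5.13 and 3.88, 2.72 and 2.81, and 4.46 and 2.66, the 2 METTL16 values lying above both eIF3a values.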

How the data were processed

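RNA immunoprecipitation libraries of METTL16, eIF3a and eIF3b from HepG2 cells, 2 replicates each, were analysed as the 6 peak lists the authors deposited. The study's methods give UV cross-linking, rRNA depletion, a stranded kit, STAR to GRCh38 and exomePeak at default settings, which called peaks against input. Tool versions, annotation and the pairing of inputs are not given in the sources used here, and the 6 inputs enter here only through the fold of each peak. The deposited columns held the p-value of each peak, its log10 p and log10 FDR (read as a score) and its fold enrichment, a ratio of RIP over input. Read counts were not used here, so the depth is unknown and no interval for counting error is printed. Of 10830 gene names, 10325 were current symbols, 466 older ones and 39 matched none. Peaks were placed on GENCODE 44 transcripts by at least 50% of their bases, with position 1 at the first base of the start codon.

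A gene counted for a protein with a peak in both replicates. Its lead peak was that with the smallest p-value, and a percentile ranks its fold among all genes of the list. Log2 folds of lead peaks, centred on each list's median, were compared with limma 3.58.1 (R 4.3.3) over 2728 genes with peaks in all 6 lists, with Benjamini-Hochberg adjustment. The procedure was tested on simulated data with shifts larger than the differences given here. That test cannot say whether differences of the size given here would be found. Tables and figures were made with Python 3.11.15, numpy 2.4.6 and matplotlib 3.10.9. The genes described were those with peaks in all 6 lists, the 8 with the highest mean METTL16 percentile that missed an eIF3 list, and others chosen after their values were seen. The values of 1 gene that the counts include are not reported here. The members and all gene lists were chosen with earlier results of these data known. Alternatives were a fold minimum of 4, 5000 peaks per list, either replicate, no centring, a replicate block, an overlap of 50%, peak bases or lead peaks for regions, and leaving out each replicate. For limma they also included quantile normalization, the highest peak of a gene, adjustment for GC content and a mean fold of at least 2.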

Additional observations from a re-analysis of the deposited data

How the results depend on the processing

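Of 132 alternative values for 19 results, 81 stayed near the main value and 51 moved. Near meant within a set ratio for counts of genes with peaks and still 0 for limma counts. For shares it meant within the SD between lists or pairs of lists. The limma counts had little room to move, since limma called 0 of all 2728 genes in the main setting. The SDs used for shares ranged from 0 to 23.1. The tally is therefore no measure of how stable the results were. Whether any direction reversed was not assessed. The counts of genes with peaks in both replicates moved with the peak threshold and with the number of replicates asked for. With a fold of at least 4, METTL16 kept 2 genes (2 cytosolic, 0 mitochondrial), and eIF3a, eIF3b and all 3 proteins kept 0 in both classes. With 5000 peaks per list the counts were 7 for METTL16 (7 and 0), 0 for eIF3a (0 and 0), 5 for eIF3b (5 and 0) and 0 for all 3. With a peak in either replicate they were 25 for METTL16 (19 and 6), 24 for eIF3a (15 and 9), 29 for eIF3b, of which 10 were mitochondrial, and 18 for all 3. Shares over all genes were not computed at these settings. Whether the synthetase genes moved more than other genes therefore cannot be told. Leaving out 1 replicate gave 16 to 23 for METTL16 (14 to 17 cytosolic, 2 to 6 mitochondrial), 12 to 19 for eIF3a (5 to 14 and 5 to 7), 23 to 26 for eIF3b (16 to 17 and 7 to 9) and 3 to 11 for all 3, with 11 without eIF3a replicate 2 and 5 without METTL16 replicate 1. Over all genes, 3736 and 2993 had peaks of all 3 proteins without these lists, against 2728 with all lists. The alternatives by class were chosen after seeing the data. The coding share at a fold of at least 4 was 30.0%, 50% and 50% for METTL16, eIF3a and eIF3b. For eIF3a and eIF3b it was 79.2% and 95% with 5000 peaks per list, 79.7% and 77.9% by peak bases, and 74.3% and 83.6% by lead peaks, and without 1 replicate it was 81.5% to 90.9% for METTL16, 73.3% to 73.7% for eIF3a and 75.0% for eIF3b. At a fold of at least 4 the overlap was 0% for METTL16 on eIF3a, 0% for METTL16 on eIF3b and 16.7% for eIF3a on eIF3b. The last was 28.6% with 5000 peaks per list and 43.0% for an overlap of at least 50%. Without 1 replicate the 3 overlaps were 16% to 40.7%, 39.8% to 75.9% and 53.3% to 61.8%. The cause was not tested. Without centring, the median of all genes shifted to 0.354 for METTL16 minus eIF3a and -0.426 for eIF3a minus eIF3b on the log2 scale, and FARSA read 0.07 and -0.25 there. Replicate numbers did not pair the lists, with correlations of 0.0608, 0.0355 and 0.0395, and with the number as a replicate block limma called 0 synthetase genes, while same-numbered pairs of lists gave overlaps of 32.7%, 58.5% and 53.6%. Without eIF3a replicate 1, limma called 18 genes between METTL16 and eIF3a and 14 between eIF3a and eIF3b, of which 0 were synthetase genes.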
